A study of Mus musculus with 2 samples.

Results

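Gdf10 Sfrp1 Col6a5 cells are fibro-adipogenic progenitors (FAPs) of mouse skeletal muscle in which messenger RNA of the secreted ligand Gdf10 was found together with that of Sfrp1 or Col6a5. They were chosen by counts of unique molecular identifiers (UMIs, each standing for 1 captured RNA molecule) in single cells. A cell passed the FAP gate when it had at least 1000 UMIs, at most 5% of them mitochondrial, at least 1 Pdgfra UMI, at least 50 Dcn UMIs and fewer than 2 Tnmd UMIs. A member had in addition at least 3 Gdf10 UMIs and at least 1 UMI of Sfrp1 or Col6a5. Of 7658 cell barcodes, 3028 passed the FAP gate and 287 were members, 119 from quadriceps and 168 from diaphragm. The cells came from C57BL/6J mice, of which 10 were used, 5 for each muscle, and no treatment or age was given. Mononuclear cells were freed from the minced muscles with collagenase and dispase, sorted as viable cells by light scatter and sequenced by 10x Chromium, a droplet method that reads the 3′ ends of RNA. The animals of a muscle were pooled into 1 library, so that there was no replicate, no difference could be tested, and tissue, pool of animals and library cannot be told apart. Confidence intervals are 95% intervals of counting error only.

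FAPs are the Pdgfra-positive stromal cells that lie between muscle fibres, make much of the muscle's extracellular matrix and can become adipocytes or fibroblasts. Gdf10, also called BMP3b, is a secreted ligand of the TGF-beta superfamily, and Sfrp1 is a secreted protein that binds Wnt ligands. Col6a5 is a chain of collagen VI, the beaded microfibril collagen found around cells in muscle. Rbp4 (the plasma carrier of retinol), Inmt (an enzyme that methylates indole amines), Penk (the precursor of enkephalin peptides) and C4b (complement component 4) are the other marker genes of these cells. None of them is in the rule, but they were listed as markers with earlier results of these data known. Their levels in members are therefore a description and not independent support for the choice.

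In quadriceps 5159 barcodes carried 50854519 UMIs in all, and in diaphragm 2499 barcodes carried 28545242. Members and FAP-gate cells without a Gdf10 UMI (1154 in quadriceps and 902 in diaphragm) served as the classes compared, with tissues apart. The median member had 11278 UMIs in quadriceps and 12856.5 in diaphragm, against 11202.5 and 13141 in the Gdf10 = 0 cells, so that depth was close in both classes. Across the libraries 5 barcodes were shared, none of them of a member. Summed markers of other cell types were low in the members: in quadriceps and diaphragm members endothelial genes came to 2.85 and 17.2 CPM (UMIs of a gene scaled to a class total of 1e+06), macrophage genes to 4.28 and 5.87, satellite cell genes to 17.8 and 6.33, and the 4 adipocyte genes to 0. Leucocyte genes summed to 43.5 and 4.97 CPM, Schwann cell genes to 52.8 and 13.1, lymphocyte genes to 12.8 and 0.452, muscle fibre genes to 12.8 and 9.94, and mural genes to 203 and 53.8 CPM (211 and 49.8 in Gdf10 = 0 cells). The summed FAP markers, with the gate's own Pdgfra and Dcn among them, reached 29317 CPM in quadriceps members and 26795 CPM in diaphragm members.

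The 250 bases before the annotated start of 3 genes are shown, because Gdf10 chose the members, Rbp4 was among the genes highest in them relative to Gdf10 = 0 cells, and Dpp4 had the lowest relative level in diaphragm members of the genes 2-fold lower in both muscles. The windows are chr14:33923337-33923586 on the plus strand for Gdf10, chr19:38125322-38125571 on the minus strand for Rbp4 and chr2:62412232-62412481 on the minus strand for Dpp4, from RefSeq on GRCm38.p6, and no GENCODE M21 exon lies in them, although the Dpp4 window lies inside the annotated gene Gm13561. Capitals mark matches on either strand to 4 searched motifs, the TATA box TATAAA, the CCAAT box CCAAT, the GC box GGGCGG and the AP-1 site TGANTCA.
Gdf10: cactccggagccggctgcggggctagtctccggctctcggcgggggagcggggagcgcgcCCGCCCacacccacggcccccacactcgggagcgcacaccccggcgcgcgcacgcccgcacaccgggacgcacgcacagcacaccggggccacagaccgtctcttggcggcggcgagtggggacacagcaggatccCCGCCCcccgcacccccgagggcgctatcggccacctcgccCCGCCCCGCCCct
Rbp4: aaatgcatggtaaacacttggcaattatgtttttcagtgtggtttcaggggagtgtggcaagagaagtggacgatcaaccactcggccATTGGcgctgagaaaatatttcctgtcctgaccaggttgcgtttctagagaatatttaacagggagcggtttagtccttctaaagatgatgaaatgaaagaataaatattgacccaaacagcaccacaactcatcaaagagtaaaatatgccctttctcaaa
Dpp4: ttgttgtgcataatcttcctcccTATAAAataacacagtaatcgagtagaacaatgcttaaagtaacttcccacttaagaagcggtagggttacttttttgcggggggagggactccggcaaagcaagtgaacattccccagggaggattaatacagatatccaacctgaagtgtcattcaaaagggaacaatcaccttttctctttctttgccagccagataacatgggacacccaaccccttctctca
The Gdf10 window held 78.8% G and C and 4 GC box matches, all on the opposite strand (read here as CCGCCC), of which the last pair overlap by 1 base. The Rbp4 window held 40.8% G and C and 1 CCAAT match, and the Dpp4 window 43.6% and 1 TATA box match. Of 32851 mouse windows of this length, 12.4% held TATAAA, 33.8% CCAAT, 32.7% GGGCGG and 6.75% TGANTCA. A match is a string of letters and was not tested as a binding site.

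The share of FAP-gate cells that were members was 7.08% in quadriceps (119 of 1681, Clopper-Pearson interval 5.90 to 8.41) and 12.5% in diaphragm (168 of 1347, 10.8 to 14.4). Diaphragm thus gave 58.5% of the members. The larger diaphragm share rested on the partner genes and not on Gdf10: at least 3 Gdf10 UMIs were found in 14.3% of FAP-gate cells in quadriceps (240 cells, 12.6 to 16.0) and in 14.2% in diaphragm (191 cells, 12.4 to 16.2). Of these Gdf10 cells, 48.8% in quadriceps and 82.7% in diaphragm had a Sfrp1 UMI. Col6a5 differed more, with a UMI in 3.33% of them in quadriceps (8 of 240, 1.45 to 6.46) and in 47.1% in diaphragm (90 of 191, 39.9 to 54.5). In cells without Gdf10 the same order held at lower shares, 25.1% and 45.3% for Sfrp1 and 2.43% and 18.3% for Col6a5.

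The make-up of the members therefore differed between the muscles. In quadriceps 111 of 119 members qualified by Sfrp1 alone, 2 by Col6a5 alone and 6 by both, whereas in diaphragm 78 of 168 qualified by Sfrp1 alone, 10 by Col6a5 alone and 80 by both. Members held a median of 6 Gdf10 UMIs in quadriceps (3 to 45) and 5 in diaphragm (3 to 28). At the edge of the rule, 18 quadriceps and 36 diaphragm members had exactly 3 Gdf10 UMIs, and 36 and 78 FAP-gate cells with a partner UMI had 2. The level of Gdf10 was 719 CPM in quadriceps members (Poisson interval 675 to 764) and 505 CPM in diaphragm members (476 to 536), that of Sfrp1 322 and 641 CPM, and that of Col6a5 9.28 CPM (13 UMIs) and 275 CPM (609 UMIs). Since these genes chose the members, the levels describe the rule.

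**Figure D1:**
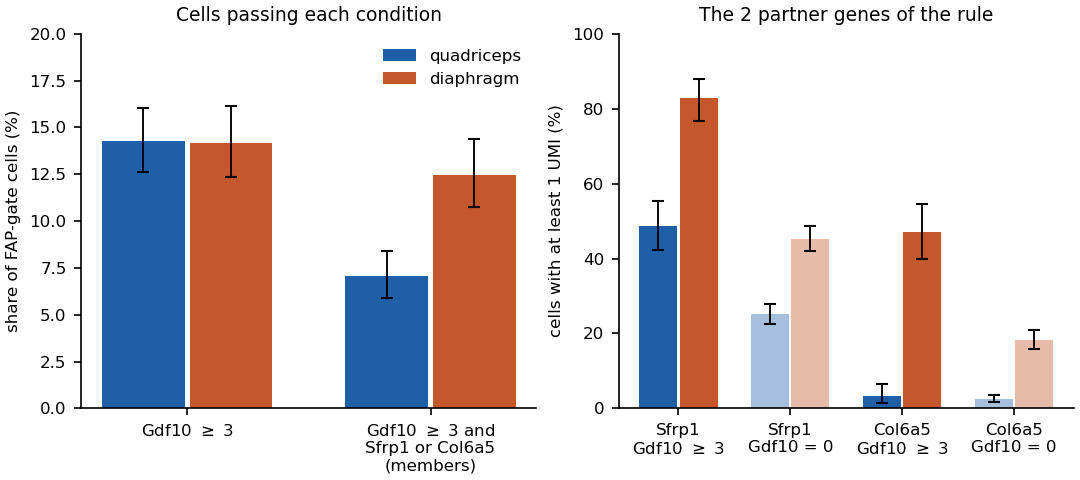
Left, share of FAP-gate cells (%) with at least 3 Gdf10 UMIs and share that were members, in quadriceps and diaphragm, and right, share of cells (%) with a Sfrp1 or Col6a5 UMI among cells with at least 3 Gdf10 UMIs (dark) and without Gdf10 (pale), with 95% Clopper-Pearson intervals. The shares with at least 3 Gdf10 UMIs, 14.3% and 14.2%, lay side by side, and the shares of members, 7.08% and 12.5%, lay apart.

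The 4 marker genes that the rule did not use were all more abundant in members than in Gdf10 = 0 cells of the same muscle. Penk was at 570 CPM in quadriceps members (531 to 611) against 127 CPM, and at 723 CPM in diaphragm members (688 to 759) against 159 CPM, and 90.8% and 94.6% of members had a UMI of it. Rbp4 was at 163 CPM in quadriceps members (142 to 185) against 19.8, and at 138 CPM in diaphragm members (123 to 154) against 28.8. Inmt was at 630 CPM in members of the quadriceps and 631 CPM in those of the diaphragm, against 140 and 242 CPM. The levels of these genes in members were thus alike in the muscles, within 1.5-fold. C4b was at 278 CPM in quadriceps members (251 to 307) against 79.1, and at 250 CPM in diaphragm members (229 to 272) against 27.0. C4b was uneven among members: only 38.7% and 40.5% had a UMI of it, and the 10 cells with the most held 62.8% of its UMIs in quadriceps and 47.9% in diaphragm. Reads of C4b could also come from its near-identical copy C4a, for which no value was read, and its level is uncertain to that extent.

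Few members lacked all of these markers. No UMI of Rbp4, Inmt, Penk or C4b was found in 2 of 119 quadriceps members (1.68%, 0.204 to 5.94) and in 3 of 168 diaphragm members (1.79%, 0.370 to 5.13), against 27.4% and 15.9% of Gdf10 = 0 cells. At least 3 of the 4 were found in 49.6% of quadriceps members and 68.5% of diaphragm members, against 11.1% and 16.6%. All 4 were found together in 20.2% and 14.9% of members, against 2.34% and 1.44%, so that the full marker set was seen in a minority. After every cell was thinned to 2000 UMIs, which left out no member, Penk was found in 58.0% of quadriceps members and 63.1% of diaphragm members, against 19.3% and 22.5% of Gdf10 = 0 cells. Leucocytes of the same libraries (Ptprc-positive, Pdgfra-negative cells with fewer than 50 Dcn UMIs) serve as a measure of free RNA. In them Penk was found in 3 of 173 thinned cells (1.73%) and in 0 of 35, which allows a share of up to 8.57%. The Pdgfra and Dcn limits leave out leucocytes with much FAP RNA, so these shares may be too low. These leucocytes were shallower, with medians of 4036.5 and 6549 UMIs before thinning. The thinned shares of Rbp4 were 13.4% and 19.0% in members against 2.60% and 3.77%, and those of C4b 26.1% and 25.6% against 8.41% and 3.33%.

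Across the transcriptome, levels were compared for genes that reached 50 CPM in members or in Gdf10 = 0 cells, and a gene was counted when its log2 difference, with 1 CPM added, passed 2-fold. In quadriceps 98 of 3381 genes (2.9%) were 2-fold higher in members and 124 (3.67%) 2-fold lower. In diaphragm 54 of 3134 genes (1.72%) were higher and 67 (2.14%) lower. Both muscles shared 40 higher genes (1.36% of 2947 measured in both) and 42 lower genes (1.43%), and 0 genes were past 2-fold in opposite directions. Of all 2947 genes, 687 were above 0 in both muscles and 1486 below 0 in both. All 48 genes higher in diaphragm members and measured in both libraries had a difference above 0 in quadriceps, and all 56 lower ones a difference below 0. The median log2 difference over all genes was -0.06 in quadriceps and -0.08 in diaphragm, and the differences in the muscles correlated across genes at r = 0.785, a description since genes are not replicates. Of the higher genes 29 had a promoter window, with GGGCGG in 13 (44.8%), TATAAA in 4, CCAAT in 7 and TGANTCA in 2, and of the lower genes 31, with GGGCGG in 20 (64.5%), TATAAA in 2, CCAAT in 7 and TGANTCA in 1. Over all 32851 mouse windows the shares were 32.7% for GGGCGG, 12.4% for TATAAA, 33.8% for CCAAT and 6.75% for TGANTCA. Those windows were not limited to genes measured at 50 CPM, so no enrichment can be read from these counts.

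**Figure D2:**
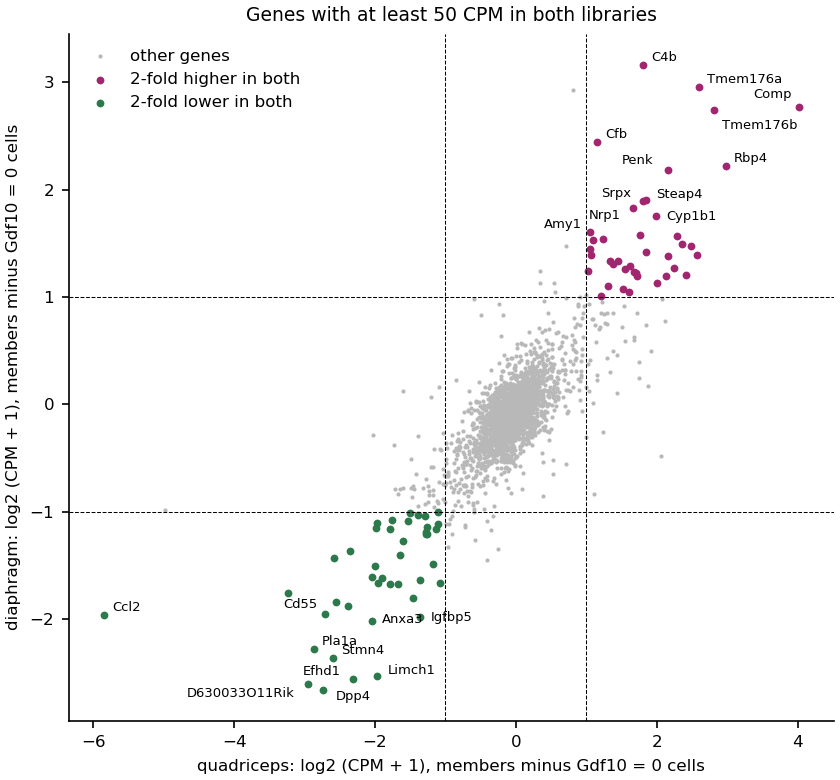
Each point is a gene with at least 50 CPM in both libraries. The axes give the log2 (CPM + 1) difference of members minus Gdf10 = 0 cells in quadriceps (horizontal) and diaphragm (vertical), dashed lines mark 2-fold, and the coloured points are the 40 higher and 42 lower genes, of which the named ones are labelled.

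The higher genes began with complement and membrane proteins. Of the genes past 2-fold in both muscles, C4b had the largest log2 difference in diaphragm, 3.16, and one of 1.80 in quadriceps. Tmem176a and Tmem176b, membrane proteins encoded head to head on chromosome 6, followed, with Tmem176a at 158 CPM against 25.4 in quadriceps and 137 against 16.8 in diaphragm, and Tmem176b at 321 against 44.8 and 252 against 36.9. The genes overlap on opposite strands at their starts (chr6:48840919-48847071, plus, and chr6:48833818-48841496, minus), whereas the method reads 3′ ends. Any effect of the overlap on their counts was not tested. Tmem176a was also found in leucocytes, in 12.7% and 37.1% of thinned cells, against 29.4% and 19.0% of thinned members. For Tmem176b these shares were 19.7% and 45.7% in leucocytes and 42.9% and 32.1% in members. In diaphragm both genes were thus found in a larger share of leucocytes than of members. Cfb, the protease factor of the alternative complement pathway, was at 114 CPM against 50.9 in quadriceps and at 81.3 against 14.1 in diaphragm. Comp, a matrix protein of cartilage and tendon, showed the largest quadriceps difference of the genes measured in both muscles, 272 against 15.8 CPM (17.2-fold, 14.5 to 20.4), and was at 98.5 against 13.6 CPM in diaphragm. Comp sat in few members, however, with a UMI in 33 quadriceps and 25 diaphragm members and 72.7% and 83.9% of its UMIs in the 10 cells with the most.

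Other genes of the higher set were spread over most members. Cst3, which encodes the protease inhibitor cystatin C, was the most abundant of those named, at 5672 CPM against 1679 in quadriceps and 6433 against 2158 in diaphragm. Its 10 richest cells held 19.6% and 18.9% of its UMIs. Every member had a UMI of it, but so did 99.8% of quadriceps and 99.9% of diaphragm Gdf10 = 0 cells, so the classes differed in its level only. Srpx, a secreted sushi-repeat protein, was at 529 against 151 CPM and 400 against 107 CPM, and Steap4, a metalloreductase, at 519 against 143 CPM and 326 against 86.4 CPM. Nrp1, a co-receptor for semaphorins and VEGF, was at 532 against 168 CPM in quadriceps and 367 against 103 CPM in diaphragm. Cyp1b1, a cytochrome P450 enzyme, was at 84.2 against 20.4 CPM and 128 against 37.3 CPM. Amy1, an amylase gene with near-identical relatives and therefore uncertain, was at 72.8 against 34.6 CPM and 72.3 against 23.1 CPM. All of these were past 2-fold in both muscles.

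**Figure D3:**
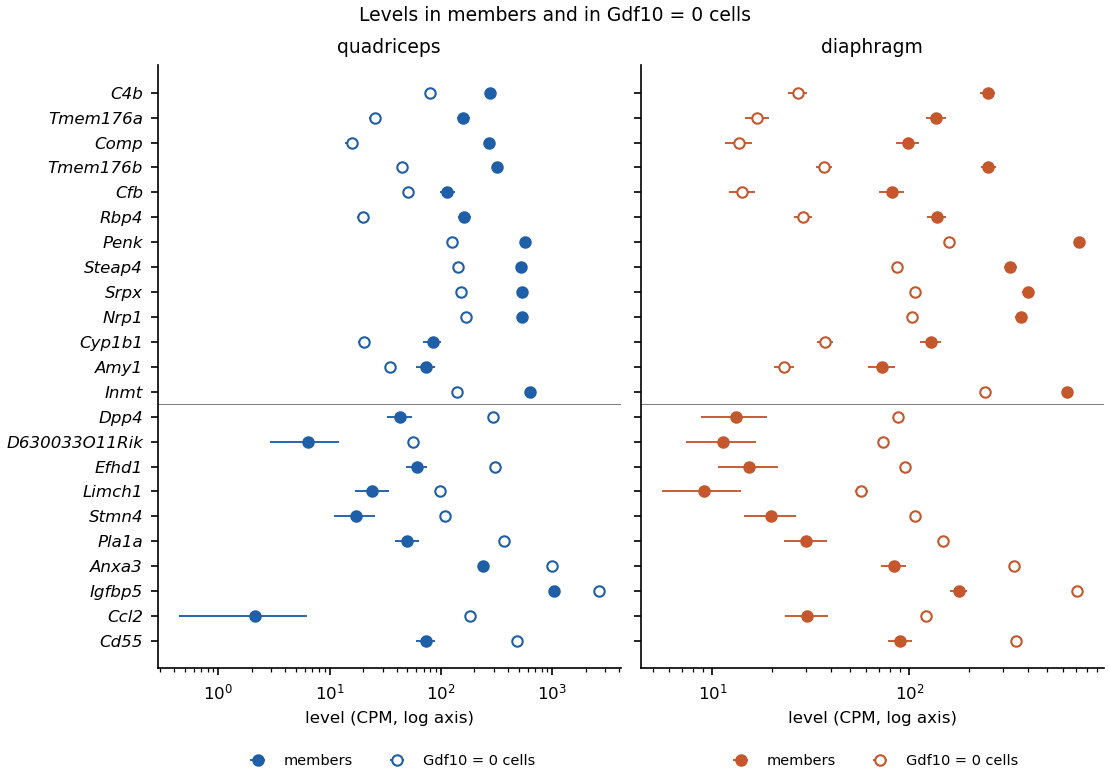
Levels in CPM (log axis) of the 12 named higher genes and Inmt, above the line, and of the 10 named lower genes, below it, in quadriceps (left) and diaphragm (right). Filled points are members, open points are Gdf10 = 0 cells, and bars are 95% Poisson intervals. Penk stood at 570 and 723 CPM in members and Dpp4 at 42.8 and 13.1 CPM.

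The lower genes included markers of another FAP state. Dpp4, a surface peptidase and a marker of Pi16-positive fibroblast progenitors, was at 42.8 CPM in quadriceps members (32.7 to 55.1) against 292, and at 13.1 CPM in diaphragm members (8.78 to 18.8) against 87.9. Pi16, a secreted peptidase inhibitor, was at 466 CPM against 2783 in quadriceps and at 1479 CPM against 3978 in diaphragm. A Pi16 UMI was still found in 91.7% of diaphragm members and in 47.9% of quadriceps members. After thinning these shares were 70.2% and 21.8%, against 92.1% and 54.0% of Gdf10 = 0 cells. Thinned leucocytes had a Pi16 UMI in 20% (diaphragm) and 11.6% (quadriceps), so part of the detection in members could be free RNA, which was not tested. Cd55, which protects cells from complement, was at 73.5 CPM against 486 and at 89.5 CPM against 350, in the opposite direction to C4b and Cfb. Of the 11 genes listed for Pi16 Dpp4 progenitors, a list made with earlier results of these data known, 8 were measured. Of these 6 were 2-fold lower in both muscles (42 of all 2947 genes, 1.43%). All 8 were below 0 in both (1486 of all 2947 genes), with medians of -2.01 and -1.82. The remaining pair were Cd248, at log2 differences of -1.17 and -0.58, and Ly6c1, at -0.53 and -0.51.

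The other named lower genes had mixed functions. Efhd1, a mitochondrial calcium-binding protein, was at 60.6 against 305 CPM in quadriceps and 15.4 against 95.4 CPM in diaphragm, and Limch1, an activator of non-muscle myosin, at 24.3 against 98.2 and 9.04 against 56.9. Stmn4, a stathmin that binds tubulin, was at 17.1 against 109 CPM and 19.9 against 106 CPM, and the phospholipase Pla1a at 49.9 against 372 and 29.8 against 149. Anxa3, an annexin, was at 240 against 995 CPM and 83.6 against 341 CPM. Each of these was found in a smaller share of members than of Gdf10 = 0 cells. D630033O11Rik, a long intergenic RNA, rested on 9 and 25 UMIs in members, at 6.42 against 56.7 CPM and 11.3 against 73.8 CPM. Igfbp5, a binding protein of insulin-like growth factors, was at 1033 against 2643 CPM and 178 against 708 CPM, but with a UMI in 71.4% of quadriceps members against 72.1% of the other class. Ccl2, a monocyte chemokine, rested on 3 UMIs in quadriceps members, a ratio of 0.0118 (0.00244 to 0.0347), and was at 30.3 against 121 CPM in diaphragm. It was found in 5.29% and 8.20% of Gdf10 = 0 cells, so its level there came from few cells.

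Gene lists were then read by function, with medians in quadriceps and diaphragm to set beside -0.06 and -0.08 for all measured genes. Counts of list genes past 2-fold in both muscles are to be set beside 1.36% higher and 1.43% lower of all 2947 genes. Among the BMP ligands and antagonists other than Gdf10, 8 of 29 genes were measured, and Fst and Bmper were 2-fold higher in both muscles while 5 were below 0 in both, where 1486 of all 2947 genes were. The medians of this list were -0.19 and -0.36. Fst, which binds activins and some BMPs, was at 816 CPM against 226 in quadriceps and 357 against 133 in diaphragm, and Bmper, a secreted BMP-binding protein, at 138 against 50.0 and 70.9 against 27.5. Bmp4 itself was at 55.7 CPM against 101 and at 115 CPM against 195, log2 differences of -0.85 and -0.75. Id2, a transcriptional regulator induced by BMP signalling, was the 1 of 5 measured BMP receptors and targets (medians 0.21 and 0.18) past 2-fold in both, at 220 CPM against 36.4 and 242 against 91.5. Of the 8 measured TGF-beta genes (medians -0.34 and -0.16), Thbs1 was lower in both, at -1.60 and -1.27.

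Of 5 measured secreted Wnt modulators and ligands other than Sfrp1, 0 were past 2-fold in both muscles, and the medians were 0.99 and -0.48. Sfrp4 and Sfrp2, relatives of Sfrp1, had log2 differences of 2.05 and 1.10 in quadriceps and -0.48 and -0.84 in diaphragm. For Sfrp4 in quadriceps, 10 cells held 90.5% of the UMIs in members and 1 cell held 20.8%. Wnt5a, a Wnt ligand, had differences of 0.56 and 1.05 and Dkk2, a Wnt antagonist, 0.99 and 1.02. The Wnt receptors Fzd4 and Lrp6 were at 1.22 and 1.05 in quadriceps and at 0.85 and 0.42 in diaphragm.

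The collagen VI chains that share microfibrils with each other were near the median of all genes, with 0 of 4 measured past 2-fold and medians of -0.14 and -0.20. Col6a1 was at 1237 CPM in quadriceps members against 1346, and at 1230 CPM in diaphragm members against 1309. Of 9 fibril and associated collagens (medians 0.12 and -0.04) Col8a1 was lower in both muscles, at -1.28 and -1.19. Among 12 measured basement membrane genes 0 were past 2-fold in both and 9 were below 0 in both (1486 of all 2947 genes), with medians of -0.57 and -0.43, and the laminin chain Lamc1 was at -1.11 and -0.92. Of 11 elastic fibre genes (medians 0.52 and -0.26), Emilin2 was lower in both, at -1.53 and -1.08.

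Complement was the functional list with the most higher genes by count, while peptide precursors and their processing had a larger share, 3 of 6. Of 10 measured complement genes, C4b, Cfb, C7 and Clu were 2-fold higher in both muscles (40 of all 2947 genes, 1.36%) and Cd55 was lower. C4b is also a marker that was listed with earlier results of these data known. Of the 10 genes 8 were above 0 in both (687 of all 2947 genes), and the medians were 0.80 and 0.77. C7, a part of the membrane attack complex, was at 102 CPM against 20.8 in quadriceps and 139 against 57.1 in diaphragm, and Clu, an inhibitor of that complex, at 293 against 51.3 and 129 against 46.0. C3, the central complement protein, had no common direction, at -0.23 and 0.93.

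Of 6 measured retinoid genes (medians 0.84 and 0.38), Rbp4 was past 2-fold in both muscles, while the retinal reductase Dhrs3 was at 1.44 and 0.46. Of 11 methyltransferases and detoxifying enzymes (medians 0.08 and -0.03), Inmt, Cyp1b1 and the monooxygenase Fmo2 were higher in both, Fmo2 at 209 CPM against 38.2 and 203 against 87.6. Of 6 measured genes for peptide precursors and their processing, Penk, Cpe and Mdk were higher and Pcsk6 lower in both, with medians of 1.16 and 0.76. Cpe, a carboxypeptidase that trims peptide hormones, was at 96.3 CPM against 28.6 and 73.7 against 31.5, the growth factor Mdk at 83.5 against 24.8 and 55.1 against 23.1, and Pcsk6, a convertase, at 131 against 525 and 289 against 822.

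Of the genes by which FAPs are divided into LUM-type and FBN1-type, none of 6 LUM-type genes (medians -0.05 and -0.07) was past 2-fold in both muscles. Lum was at 0.26 and 0.09 and Hsd11b1 at -0.86 and -0.94, whereas Apod was at 0.71 and 1.47. All 4 FBN1-type genes were below 0 in both muscles (1486 of all 2947 genes), with medians of -0.98 and -0.74, and Fbn1, the microfibril protein fibrillin-1, was 2-fold lower in both, at 630 CPM against 1971 and 467 against 1236. The other 3 were not past 2-fold in both. Of 10 chemokine and cytokine genes (medians -0.68 and 0.02), Cxcl12 and the receptor Il1r1 were higher and Ccl2 and the scavenger receptor Ackr3 lower in both, with Cxcl12 at 539 CPM against 234 and 366 against 181. Of 12 growth factor genes (medians 0.06 and 0.07), 0 were higher in both and Igfbp5 was lower, while Igf1 was at log2 differences of 1.27 and 0.76 and Fgf7, a fibroblast growth factor, at 123 CPM against 42.6 and 93.1 against 56.1. Of 6 measured patterning factors (medians 0.99 and 0.61), Meox2 and Nr2f2 were higher in both, Meox2 at 380 CPM against 146 and 122 against 48.7.

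The remaining lists held no gene past 2-fold in both muscles: 5 adipogenic genes, 17 immediate early genes, 9 heat shock chaperones, 10 matrix proteases and their inhibitors, 6 small leucine-rich proteoglycans, 8 glucocorticoid genes and 3 hyaluronan genes. The medians of the immediate early genes were 0.02 and 0.08, close to those of all genes. Of tenocyte markers, Comp was higher and Thbs4 lower in both, and their list summed to 311 CPM in quadriceps members against 131 and to 538 CPM in diaphragm members against 1344. Thbs4, a matrix protein of tendon, was at 25.7 CPM against 109 and at 430 CPM against 1313. The part of tendon cells in these levels was not tested.

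Levels were also followed over FAP-gate cells grouped by Gdf10 UMIs, at 0, 1 to 2, 3 to 5, 6 to 10 and over 10. Cst3 was at 1679, 3615, 5005, 6229 and 8142 CPM in the successive groups of quadriceps and at 2158, 3302, 5119, 7887 and 9913 CPM in those of diaphragm. Inmt was at 140, 222, 376, 489 and 937 CPM in quadriceps, and 242, 398, 549, 653 and 848 CPM were its diaphragm levels. Both genes were thus higher in each further group, and cells with 1 or 2 Gdf10 UMIs lay between cells without Gdf10 and members. Penk did so in quadriceps (127, 352, 438, 502 and 556 CPM), but in diaphragm it was highest at 6 to 10 UMIs, with 159, 436, 585, 831 and 658 CPM. Pi16 was 2783, 1353, 490, 441 and 168 CPM in quadriceps and 3978, 2638, 1766, 1082 and 1305 CPM in diaphragm. The last group held 39 and 25 cells, and the median UMIs of the groups lay between 10773 and 11540 for quadriceps and between 12397.5 and 13646 for diaphragm, a narrow range of depth.

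**Figure D4:**
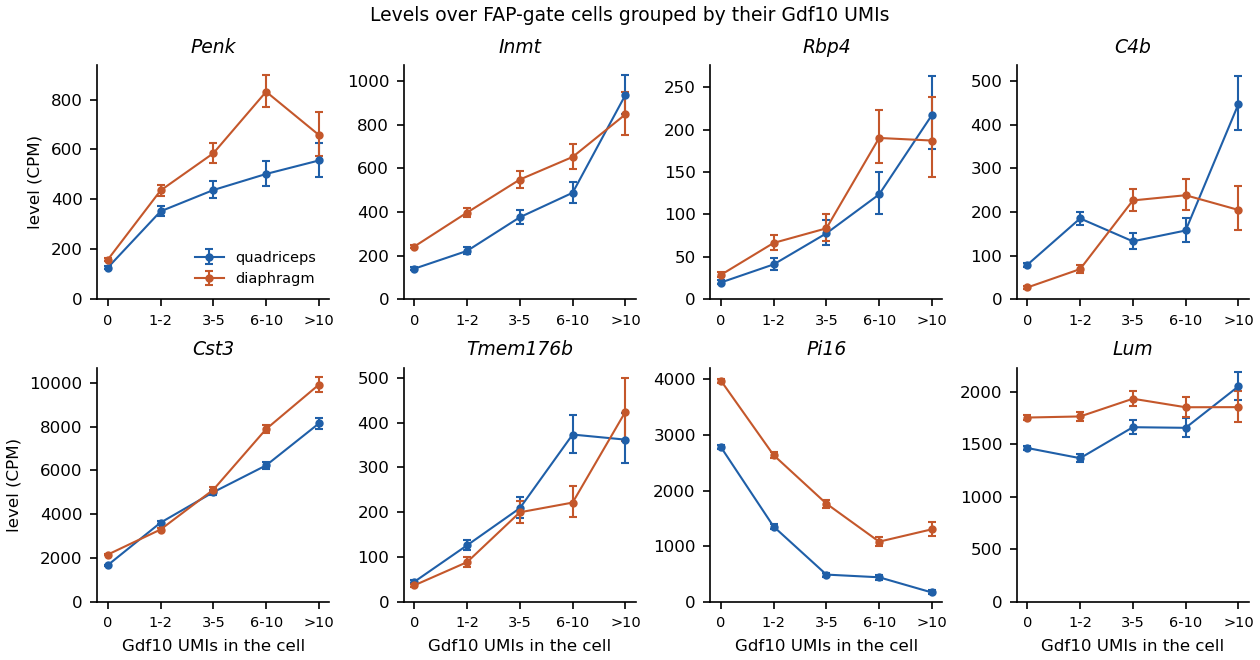
Level in CPM of 8 genes, from 0 on a linear axis, over FAP-gate cells grouped by their Gdf10 UMIs, with quadriceps and diaphragm as separate lines and 95% Poisson intervals as bars. Cst3 stood highest in the group over 10, at 8142 and 9913 CPM, and Pi16 was highest in cells without Gdf10, at 2783 and 3978 CPM.

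Over single FAP-gate cells, the genes most correlated with Gdf10 in diaphragm (log of UMIs per 10000, 1347 cells, 8673 genes with a UMI in enough cells) were Cst3 (r = 0.45), Penk (0.45), Srpx (0.44), Nrp1 (0.42), Tmem176b (0.42), Sfrp1 (0.40), Fmo2 (0.39), Steap4 (0.39), Il11ra1 (0.37) and Tmem176a (0.37). In the 1681 quadriceps cells the same genes had r of 0.52, 0.42, 0.43, 0.38, 0.44, 0.25, 0.39, 0.35, 0.44 and 0.38, in that order. Col6a5 stood at rank 55 in diaphragm, with r = 0.23, and at 0.01 in quadriceps, both below the r of Sfrp1. Col6a5 was much sparser, with a UMI in 2.43% of quadriceps and 18.3% of diaphragm Gdf10 = 0 cells, against 25.1% and 45.3% for Sfrp1. The r of these genes therefore cannot say which follows Gdf10 more closely. Pcsk6 had r of -0.42 and -0.44, and Pi16 of -0.38 and -0.29. These cells share a library and differ in depth, and the values are descriptions.

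Members also lay near each other when the 6 rule genes were left out. Of the 20 nearest cells of a member (10 principal components of 2000 variable genes, FAP-gate cells of its own library), 30.6% on average were members in quadriceps and 36.5% in diaphragm, where members made up 7.08% and 12.5% of all cells. For Gdf10 = 0 cells these averages were 2.18% and 5.17%. The median share was 30% in quadriceps members and 35% in diaphragm members, against 5% and 15% for cells with 1 or 2 Gdf10 UMIs and 0% for Gdf10 = 0 cells. At least 50% member neighbours were found for 22 of 119 and 51 of 168 members, and 7 and 4 members had none. Cells with 3 or more Gdf10 UMIs, with or without a partner, made up 51.2% and 38.9% of the members' neighbours on average, where they were 14.3% and 14.2% of all cells. Cells with 3 or more Gdf10 UMIs but neither partner had 18.3% and 27.6% member neighbours, between the classes.

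Those cells without a partner, 121 in quadriceps and 23 in diaphragm, shared part of the profile. In quadriceps they had Penk at 380 CPM, Inmt at 377, Rbp4 at 66.1 (53.1 to 81.3) and C4b at 106, all lower than in the 111 Sfrp1-only members, which had 533, 666, 168 and 274 CPM, while Pi16 was alike at 373 and 380 CPM. In diaphragm they had Penk at 219 CPM and C4b at 24.3 CPM (6 UMIs). Within diaphragm members, the 80 cells with both partners were set beside the 78 with Sfrp1 alone. Cells with both had more Penk (874 against 558 CPM) and C4b (351 against 141 CPM), and less Rbp4 (105 against 195 CPM) and Comp (54.5 against 165 CPM). These values carry counting error only, and 10 diaphragm members held 83.9% of the Comp UMIs and 44.9% of the Rbp4 UMIs, so the spread between cells is not covered. Inmt was alike, at 628 and 658 CPM. These subsets were split by genes of the rule, and their median depths were 13912.5 and 11555 UMIs.

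Overlap with neighbouring FAP gates was partial. A gate of at least 3 Cxcl14 UMIs with Hsd11b1 held 34.5% of quadriceps members (41 cells) and 20.2% of diaphragm members (34 cells), against 25.4% and 20.4% of Gdf10 = 0 cells. A gate of at least 3 Prg4 UMIs with Clu held 30.3% and 19.0% of members, against 8.93% and 7.98%. A gate of at least 3 Has1 UMIs with Tnfaip6 held 0.84% and 14.9%, against 1.04% and 16.4%. The Prg4 Clu gate was thus the 1 of 3 that held a larger share of members than of Gdf10 = 0 cells in both muscles.

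Members were also set against the Cxcl14 Hsd11b1 cells without Gdf10 (293 in quadriceps and 184 in diaphragm), a comparison chosen after the data were seen. Of 2949 genes, 32 (1.09%) were 2-fold higher in members in both muscles and 49 (1.66%) lower. Of the 40 genes higher than in all Gdf10 = 0 cells 23 were among the 32 (57.5% of the first list and 71.9% of the second), and of the 42 lower genes 12 were among the 49 (28.6% and 24.5%). Rbp4 was at 29.9 and 19.1 CPM in the Cxcl14 Hsd11b1 cells of quadriceps and diaphragm, Penk at 205 and 222 CPM and C4b at 47.4 and 28.4 CPM, all 2-fold below the members. Inmt was past 2-fold in quadriceps only, at 222 CPM against 630 in members, and was at 399 CPM against 631 in diaphragm. Dpp4 was low in these cells as in members, at 59.4 and 10.6 CPM. Bmper was near its level in members, at 111 and 72.0 CPM against 138 and 70.9, whereas Fst was lower than in members, at 278 and 85.9 CPM against 816 and 357. Pi16 was at 492 CPM against 466 in quadriceps members and at 2804 against 1479 in diaphragm members. Lower in members were the basement membrane genes Lamc1 (log2 differences -1.53 and -1.11) and Hspg2 (-1.86 and -1.51), the ligands Bmp2 (-2.37 and -2.37) and Bmp4 (-1.66 and -1.21), and Ret and Gfra1, the receptor and co-receptor for GDNF-family ligands (-3.51 and -2.56, and -3.16 and -3.83). The members that also passed the Cxcl14 Hsd11b1 gate were kept in this comparison.

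Between the muscles, 131 of 3246 genes (4.04%) were 2-fold higher in diaphragm members than in quadriceps members and 90 (2.77%) 2-fold lower, and the median log2 difference of diaphragm minus quadriceps over these genes was -0.12. Most of these differences were also seen outside the members: 100 of the 131 and 56 of the 90 were 2-fold in the same direction in Gdf10 = 0 cells. Higher in diaphragm were the immediate early gene Fos, 243 CPM in quadriceps and 3364 CPM in diaphragm members (13.8-fold, 12.4 to 15.5), and the stress-responsive Atf3, 14.3 and 592 CPM (41.5-fold, 26.7 to 68.1). Of 24 listed immediate early genes 18 were higher in diaphragm members and 0 lower, and of 9 heat shock chaperones 7 were higher. The immediate early genes summed to 5151 CPM in quadriceps and 24025 CPM in diaphragm members and to 5909 and 22364 CPM in Gdf10 = 0 cells, and the chaperones to 3900 and 15974 CPM in members, so the whole diaphragm FAP gate carried them. Their part in the other differences between the muscles was not tested.

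Wt1, a transcription factor of mesothelium and of some stromal cells, had 286 UMIs in diaphragm members (129 CPM) and 0 in quadriceps members, a level at least 60.4-fold higher against 3 counts in the quadriceps members. This was not particular to members, since Gdf10 = 0 cells had Wt1 at 86.8 CPM in diaphragm and 0 CPM in quadriceps. The other 8 of 9 mesothelial markers were at 0 in diaphragm members. Has1, a hyaluronan synthase, was 13.9-fold higher in diaphragm members (7.81 to 27.2) and Thbs4 16.7-fold, and the chemokine gene Ccl7 rested on 1 UMI in quadriceps (74.1-fold, 13.0 to 2951). In Gdf10 = 0 cells Ccl7 was at 53.3 CPM in quadriceps and 105 CPM in diaphragm, a much smaller difference. Gm12840 and Gm17056 were 58.6-fold and 23.3-fold higher. Quadriceps members had the limb patterning factors Hoxc10 (96.3 CPM), Tbx15 (67.8 CPM), Hoxc9 (54.9 CPM) and Hoxa10 (50.7 CPM), each with 0 UMIs in diaphragm members and hence at least 71.1-fold, 50.0-fold, 40.5-fold and 37.4-fold higher against 3 counts. Shox2, another limb factor, was 61.6-fold higher in quadriceps members (23.6 to 229), the calcium-binding S100a4 23.0-fold and the actin gene Acta2 12.4-fold. In Gdf10 = 0 cells of quadriceps and diaphragm S100a4 was at 442 and 31.9 CPM and Acta2 at 104 and 18.7 CPM. The mural genes, Acta2 among them, summed to 312 CPM in quadriceps leucocytes and 10.2 CPM (3 UMIs) in diaphragm leucocytes. The part of free RNA in the Acta2 levels was not tested. Of the 35 listed patterning factors, 8 were 2-fold higher in quadriceps members and 3 in diaphragm members.

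Some genes differed between the muscles more in members than in Gdf10 = 0 cells, although the difference of differences could not be tested. Chrdl1, a secreted BMP antagonist, was at 97.0 CPM in quadriceps and 1.81 CPM in diaphragm members (4 UMIs, 53.7-fold, 20.5 to 200), against 20.1 and 2.60 CPM in Gdf10 = 0 cells. Sfrp4 was at 532 and 91.7 CPM in members, with its UMIs in few cells, against 127 and 129 CPM. Comp was at 272 CPM in quadriceps and 98.5 CPM in diaphragm members, against 15.8 and 13.6 CPM.

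**Figure D5:**
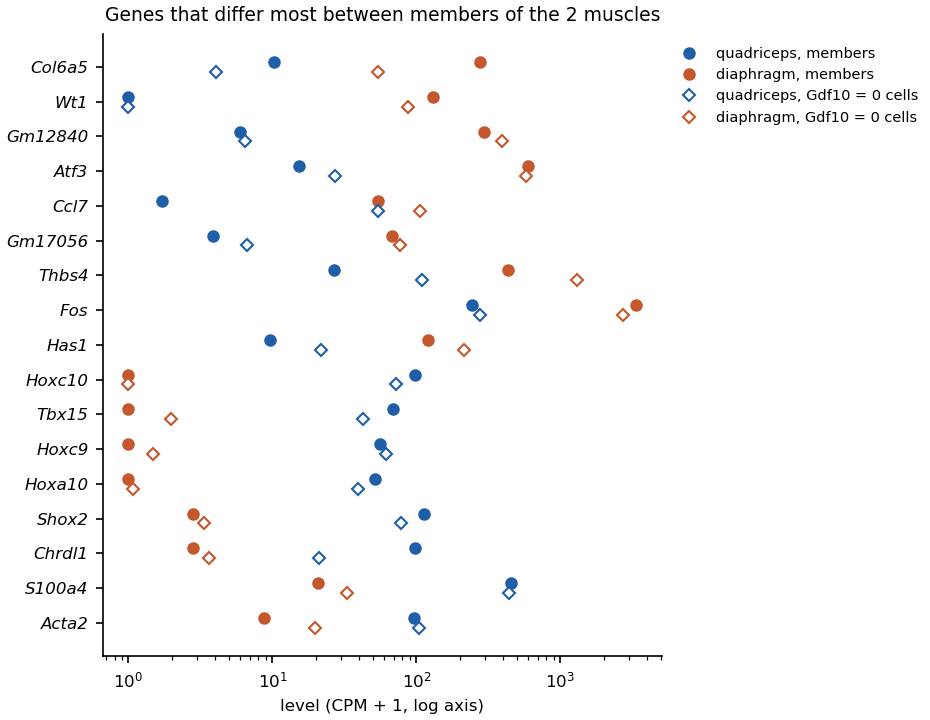
Level in CPM + 1 (log axis) of Col6a5 and of the 8 genes per direction that differed most between members of the muscles, with members as filled circles and Gdf10 = 0 cells as open diamonds. Fos stood at 243 and 3364 CPM and Chrdl1 at 97.0 and 1.81 CPM.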

How the data were processed

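Mononuclear cells of quadriceps and diaphragm were measured in 2 libraries. The deposited values were raw UMI counts per gene and barcode (27998 genes), which the authors made with Cell Ranger 3.0.0 from reads aligned to mm10 (GRCm38), and the submitters' notes also name Seurat. Barcodes that the authors' cell calling dropped were not used here, and the data held 0 columns that matched no library.

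Filtering for 1000 UMIs and 5% mitochondrial UMIs left 2171 quadriceps and 1664 diaphragm cells. Each class was summed into 1 profile and scaled to CPM, log2 differences used a pseudocount of 1 CPM, and a gene was called past 2-fold with at least 50 CPM in the higher class. Levels carry exact Poisson intervals and shares Clopper-Pearson intervals. With 1 library per tissue no test was made, and a call in both tissues is a repeat in another library, not a replicate. The calculation was tested on simulated counts. Doublets were not removed for the main values. Scrublet, an alternative, marked 104 of 5010 quadriceps barcodes (1 member) and 2 of 2432 diaphragm barcodes (0 members), so few in diaphragm that it gave little information there. Sequences came from RefSeq and positions from GENCODE M21, where all 85 genes looked up were found. Python 3.11.15, numpy 2.4.6, scipy 1.17.1, pandas 2.3.3, scikit-learn 1.9.0 and scanpy 1.11.5 were used.

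Genes were named by rule: the rule's 6 genes and the 7 markers, the 12 higher and 10 lower genes with the largest diaphragm difference among those past 2-fold in both tissues, the 8 genes per direction that differed most between tissues, list members past 2-fold in both with up to 4 others, and the 10 genes most correlated with Gdf10. Others that are named were chosen after their values were seen. The members and gene lists were chosen with earlier results of these data known. The comparison with Cxcl14 Hsd11b1 cells was added after the data were seen. Alternatives changed the mitochondrial, depth, Gdf10, Dcn and partner limits, doublets, cells with other markers, the comparison class, the pseudocount, the level minimum and the scaling.

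Some items are not reported here.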

Additional observations from a re-analysis of the deposited data

How the results depend on the processing

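The data hold 1 library per tissue, so counting intervals cover neither animals nor library preparation, and 17 alternatives to the main choices say only how values depend on the processing. Of 92 alternative values of the 6 main results, 76 stayed within their interval or within 1.5-fold. The share of members in quadriceps was 13.2% with at least 1 Gdf10 UMI, 4.82% with at least 5, 14.3% with no condition on the partners and 0.357% with both partners required. In diaphragm it was 27.8%, 7.94% and 5.94% with at least 1, at least 5 and both partners. The 40 genes higher in both muscles became 26 with at least 1 Gdf10 UMI (25 of them among the 40), 25 against all other FAP-gate cells (25 shared) and 135 with no minimum level. The 42 lower genes became 24 with at least 1 Gdf10 UMI (24 shared) and 205 with no minimum. The 131 genes higher in diaphragm members became 362 with both partners and 818 with no minimum, and the 90 lower ones 743 and 938. Requiring both partners left 6 quadriceps members, and there the quadriceps log2 differences turned to -0.41 for C7, -4.07 for Comp, -6.20 for Mfap4, -2.39 for Sfrp2, -1.04 for Sfrp4 and 0.49 for Stmn4. Of 4448 alternative differences of 139 genes between members and Gdf10 = 0 cells, 3555 were labelled as kept, 887 as moved and these 6 as reversed. A reversal was counted only where the main difference was at least 2-fold, and sign changes of smaller differences were not counted apart. Of 240 tissue differences, 206 stayed and 34 moved. No paired analysis was possible because each tissue had 1 library with no replicate.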

Other observations

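Further genes past 2-fold in both muscles, chosen here after their values were seen, had roles not yet described. Sema3c among them is also on the list of Pi16 Dpp4 progenitor genes. Among the higher ones, Gpx3, a secreted glutathione peroxidase, was at 1426 CPM in quadriceps members against 665 in Gdf10 = 0 cells and at 3196 against 1107 CPM in diaphragm. Il11ra1, the receptor of interleukin 11, was at 1217 against 422 CPM and 950 against 452 CPM. Clec11a, a secreted lectin with growth factor activity on bone, was at 128 against 24.3 CPM and 91.3 against 31.8 CPM. Cp, the copper-binding ferroxidase ceruloplasmin, was at 220 against 106 CPM and 332 against 121 CPM. Aoc3, an amine oxidase of the cell surface, was at 63.5 against 12.3 CPM and 86.8 against 28.5 CPM.

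Among the lower ones, Sema3c, a secreted semaphorin and so a ligand for neuropilins such as Nrp1, was at 145 against 543 CPM in quadriceps and 58.7 against 182 CPM in diaphragm, opposite in direction to Nrp1. Sbsn, a secreted protein of epithelia, was at 35.7 against 346 CPM and 21.7 against 75.9 CPM. Postn, a matrix protein of healing tissue, was at 34.2 against 121 CPM and 60.5 against 195 CPM. Thy1, a surface protein common on fibroblasts, was at 107 against 275 CPM and 39.8 against 126 CPM. Tek, the angiopoietin receptor, was at 25.7 against 139 CPM and 18.5 against 70.9 CPM, while the summed endothelial markers of the members came to 2.85 and 17.2 CPM. Pthlh, a secreted peptide related to parathyroid hormone, was at 10.7 against 58.7 CPM and 29.4 against 77.0 CPM.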
